A study of Saccharomyces cerevisiae with 4 samples.

Results

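The zinc homeostasis genes described here were read in RNA bound by Mip6, a yeast RNA-binding protein that contacts the mRNA export receptor Mex67. They are ZRT1, ZRT2, ZRT3, ZAP1, ZRC1, COT1, ZPS1, ADH4, ZRG8 and IZH1, 10 of the 7126 features in the count files, matched by the gene name in the authors' deposited table. The group was selected on the read level of ZRT1, one of the most heavily read mRNAs at both temperatures, so that level is given as a description and supports nothing. The other 9 were chosen as genes of the same pathway.

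The assay was PAR-CLIP, which crosslinks RNA that has taken up 4-thiouracil to the protein bound to it. All samples came from Saccharomyces cerevisiae of the strain Mip6-HTB, in which Mip6 carries the HTB purification tag, grown to OD 0.6-0.8 in a glucose medium lacking uracil except for a small supplement. The heat-stressed cells had 4-thiouracil for 25 min at 30 °C and for 20 min at 39 °C, and the non-stressed cells had it for 45 min at 30 °C. Both were then irradiated at 365 nm for 15 min. Each temperature has 1 library, which the labels split by strand into a plus and a minus sample, 4 samples in all. Without replicates no test between temperatures was possible, and every interval below covers counting error only.

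Reads in features numbered 6950540 at 39 °C and 11657228 at 30 °C. Levels are own-strand CPM, the reads on the gene's own strand scaled to counts per 1000000 reads in features of both strand files. A count of 0 would allow up to 0.432 CPM at 39 °C, against 0.257 CPM at 30 °C. Ratios were read for the 6162 features that have a strand in their systematic name and at least 20 own-strand reads over both libraries, and all 10 zinc genes passed that minimum. No input RNA and no untagged strain was analysed here, so mRNA abundance and crosslinking to Mip6 cannot be told apart, and neither can fewer cells and less RNA per cell. PCR copies of 1 molecule count as separate reads, so the intervals may be too narrow even for counting error.

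Zinc is a cofactor of many enzymes and transcription factors, and yeast holds its level steady by changing uptake and storage. When zinc runs low, the transcription factor Zap1 switches on the genes for plasma membrane uptake and for release from the vacuole, and it also activates its own gene. When zinc is in excess, transporters of the cation diffusion facilitator family move it into the vacuole.

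The reads of the group came mostly from 1 gene. The 10 genes together held 0.374% of all reads in features at 39 °C (26011 own-strand reads) and 0.375% at 30 °C (43679 own-strand reads). ZRT1 alone made up 58.1% of these at 39 °C (Clopper-Pearson 95% interval 57.5 to 58.7), against 59.9% at 30 °C (59.4 to 60.3). The other 9 genes summed to 1566.8 CPM at 39 °C, against 1504.4 CPM at 30 °C.

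ZRT1 codes for the high-affinity zinc transporter of the plasma membrane (YGL255W, chrVII:20978-22108 in build R64, plus strand). It had 15121 own-strand reads at 39 °C, which is 2175.5 CPM (exact Poisson 95% interval 2141.0 to 2210.5), and 26142 own-strand reads at 30 °C, which is 2242.6 CPM (2215.5 to 2269.9). Its level was thus nearly the same in both libraries, with a log2 ratio of 39 °C over 30 °C of -0.04 (exact conditional binomial 95% interval -0.07 to -0.01). That small difference turned to 0.01 (-0.02 to 0.03) when libraries were scaled to own-strand reads alone. By own-strand CPM ZRT1 was in place 8 at 39 °C and in place 4 at 30 °C among all features with a strand. Per kilobase of feature it had 1923.5 CPM at 39 °C, against 1982.8 CPM at 30 °C, place 21 at 39 °C and place 17 at 30 °C.

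The 4 features nearest to ZRT1, by Euclidean distance of log2 own-strand CPM over the 2 temperatures, were 3 genes of glycolysis and 1 chaperone gene. FBA1, aldolase and itself a zinc enzyme in yeast, lay closest at a distance of 0.15, with 2104.7 CPM at 39 °C, against 2029.6 CPM at 30 °C. TPI1, triose phosphate isomerase, followed at 0.25, then TDH3, glyceraldehyde-3-phosphate dehydrogenase, at 0.39 and the Hsp70 gene SSA1 at 0.48. With 2 values per gene this likeness is one of level more than of pattern.

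**Figure D1:**
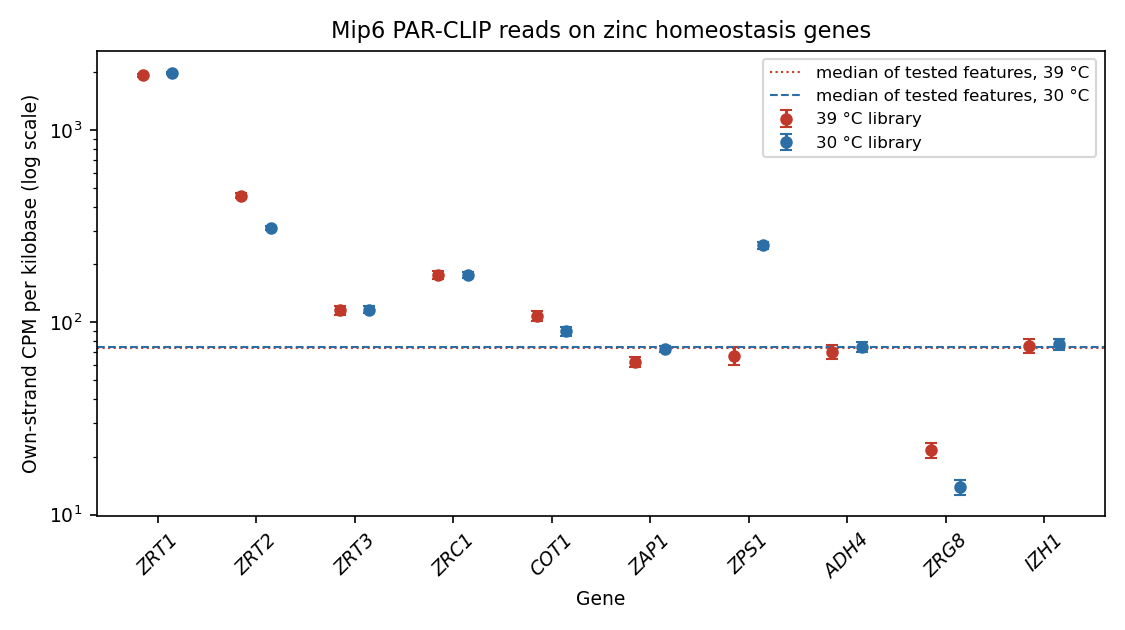
Own-strand CPM per kilobase of the 10 zinc genes on a log axis, with exact Poisson 95% intervals of the counts, in the 39 °C library (red) and the 30 °C library (blue). Lines give the medians of all tested features, 73.5 at 39 °C and 74.1 at 30 °C. ZRT1 stands highest in both libraries, ZRG8 lowest, and ZPS1 shows the widest gap between libraries.

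ZRT2, the low-affinity zinc transporter of the plasma membrane (YLR130C, chrXII:402794-404062, minus strand), was the second most read member. It had 4017 own-strand reads or 577.9 CPM (560.2 to 596.1) at 39 °C and 4577 own-strand reads or 392.6 CPM (381.3 to 404.2) at 30 °C. The intervals of the levels do not overlap, and the log2 ratio was 0.56 (0.50 to 0.62), a 1.47-fold higher level at 39 °C that stayed within 2-fold. Of the tested features, 87.6% had a lower ratio. Per kilobase, the level of ZRT1 was 4.22 times that of ZRT2 at 39 °C and 6.41 times at 30 °C.

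The transporters of the vacuole membrane were read at intermediate levels and differed little between libraries. ZRT3, which releases zinc from the vacuole, had 1214 reads or 174.7 CPM at 39 °C against 2049 reads or 175.8 CPM at 30 °C, for a log2 ratio of -0.01 (-0.11 to 0.09). ZRC1, which moves zinc into the vacuole, had 1635 reads or 235.2 CPM at 39 °C against 2724 reads or 233.7 CPM at 30 °C, for a log2 ratio of 0.01 (-0.08 to 0.10). For both genes the interval holds no change. COT1, a related importer of cobalt and zinc, had 991 reads or 142.6 CPM (133.8 to 151.7) at 39 °C and 1385 reads or 118.8 CPM (112.6 to 125.2) at 30 °C. Its intervals do not overlap, and its log2 ratio was 0.26 (0.14 to 0.38). Per kilobase the level of ZRC1 was 1.64 times that of COT1 at 39 °C and 1.95 times at 30 °C. ZRC1 and COT1 are paralogs, and the counting of reads that match both was not given in the sources used here.

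ZAP1, the gene of the regulator itself (YJL056C, chrX:330431-333073, minus strand), was read far less than its target ZRT1. It had 1140 own-strand reads or 164.0 CPM (154.6 to 173.8) at 39 °C and 2238 own-strand reads or 192.0 CPM (184.1 to 200.1) at 30 °C. The log2 ratio was -0.23 (-0.33 to -0.12), within 2-fold. With the reads of both strands summed it was -0.07 (-0.17 to 0.02), an interval that holds no change. Per kilobase the level of ZRT1 was 31.0 times that of ZAP1 at 39 °C and 27.3 times at 30 °C.

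ZPS1, whose product at the cell surface resembles zinc metalloproteinases, was the member that differed most between libraries (YOL154W, chrXV:34658-35407, plus strand). It had 347 own-strand reads or 49.9 CPM (44.8 to 55.5) at 39 °C and 2197 own-strand reads or 188.5 CPM (180.7 to 196.5) at 30 °C. The level at 39 °C lay below that at 30 °C with no overlap, at a log2 ratio of -1.91 (-2.08 to -1.75), or 3.77-fold lower. Only 15 of the 6162 tested features, ZPS1 included, had a ratio this low or lower. With both strands summed the log2 ratio was -1.17 (-1.30 to -1.05), still more than 2-fold lower.

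The remaining Zap1 targets of the group, ADH4, IZH1 and ZRG8, lay within 2-fold. ADH4, an alcohol dehydrogenase gene (YGL256W, chrVII:15159-16307, plus strand), had 562 reads or 80.9 CPM at 39 °C against 995 reads or 85.4 CPM at 30 °C, for a log2 ratio of -0.08 (-0.23 to 0.07). IZH1, a membrane protein of the family that includes the adiponectin receptors, had 498 reads or 71.6 CPM at 39 °C against 851 reads or 73.0 CPM at 30 °C, for a log2 ratio of -0.03 (-0.19 to 0.13). Both intervals hold no change. ZRG8, named as a zinc-regulated gene, had 486 reads or 69.9 CPM (63.8 to 76.4) at 39 °C and 521 reads or 44.7 CPM (40.9 to 48.7) at 30 °C. Its log2 ratio was 0.65 (0.46 to 0.83), within 2-fold, on the fewest own-strand reads of the 10 genes at 30 °C.

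Of the 10 zinc genes, 0 were at least 2-fold higher at 39 °C, 1 (ZPS1) was lower by that much and 9 differed less. Over all tested features 4.40% were at least 2-fold higher and 2.69% at least 2-fold lower, and 1 gene of 10 is too few to set against these shares. The median log2 ratio was -0.02 over the group and -0.03 over all tested features. Between the quartiles of all tested features, -0.33 and 0.28, lay 7 of the genes, with ZRT2 and ZRG8 above and ZPS1 below. Within 0.1 of no change on the log2 scale were 5 of the 10, namely ZRT1, ZRT3, ZRC1, ADH4 and IZH1, and 17.9% of all tested features.

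**Figure D2:**
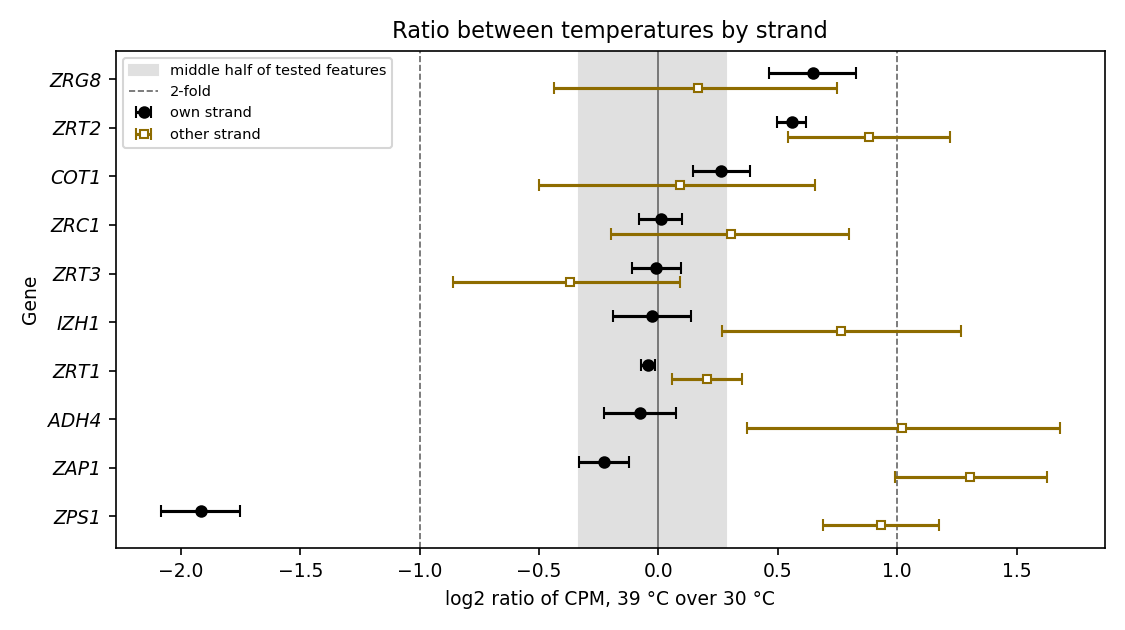
Log2 ratio of CPM, 39 °C over 30 °C, of each zinc gene for reads on its own strand (filled circles) and on the other strand (open squares), with exact conditional binomial 95% intervals. The grey band spans the quartiles of own-strand ratios of all tested features, and dashed lines mark 2-fold. ZPS1 lies at -1.91 on its own strand and at 0.93 on the other.

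In the authors' deposited table, whose log2 ratio runs as 30 °C over 39 °C, ZPS1 was also the 1 member with a probability above 0.9, at 0.981 with a log2 ratio of 1.94. That table has 3.05% of 6918 features with a value called higher at 39 °C and 5.12% called lower. ZRT2 came next in the authors' deposited table with a probability of 0.897, and ZRT1 had 0.0281. These are scores of the authors' own comparison of the same reads and not p-values.

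Per kilobase of feature, the order of levels was the same in both libraries apart from the place of ZPS1. At 39 °C ZRT1 was followed by ZRT2 (455.4), ZRC1 (177.0), ZRT3 (115.5), COT1 (108.0), IZH1 (75.3), ADH4 (70.4), ZPS1 (66.6), ZAP1 (62.1) and ZRG8 (21.6 CPM per kilobase). The counting intervals of ZRT3 and COT1 overlap there, as do those of each neighbouring pair among IZH1, ADH4, ZPS1 and ZAP1. At 30 °C ZPS1 stood in place 3 with 251.3 CPM per kilobase, between ZRT2 with 309.4 and ZRC1 with 175.8, and neighbouring intervals overlap only among IZH1, ADH4 and ZAP1. Above the median of all tested features were 6 of the 10 genes at 39 °C and 8 at 30 °C.

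Reads on the strand opposite the gene were a small part for the transporters. As a share of a gene's reads they were highest for ZPS1 at 39 °C, while at 30 °C the intervals of ZPS1 and ZRG8 overlap. For ZRT1 such reads made up 4.15% (3.84 to 4.47) of the reads at 39 °C, against 3.51% (3.30 to 3.74) at 30 °C, with Clopper-Pearson 95% intervals. The medians over all tested features were 8.08% at 39 °C and 6.01% at 30 °C. The 90th percentiles were 52.0% at 39 °C and 47.1% at 30 °C, so none of the shares below passed them. For ZPS1 the share was 46.9% (43.0 to 50.8) at 39 °C, from 306 reads, and 10.9% (9.70 to 12.2) at 30 °C, from 269 reads. For ZAP1 it was 15.4% (13.5 to 17.5) at 39 °C, from 208 reads, and 5.93% (5.01 to 6.95) at 30 °C, from 141 reads. ZAP1 thus lay above the median of all tested features at 39 °C and close to it at 30 °C. IZH1 had 12.3% at 39 °C and 7.5% at 30 °C, ZRG8 had 7.95% at 39 °C and 10.8% at 30 °C, and ADH4 had 7.57% at 39 °C and 3.68% at 30 °C. The 5 transporter genes had shares of at most 5.62% in either library. Strand here is that of the sample label. Whether base mismatches were used to sort reads by strand was not stated, so other-strand reads need not all be opposite-strand RNA.

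On the other strand the ratio was higher than on the own strand for 7 of the 10 genes, the exceptions being ZRT3, COT1 and ZRG8. The share of all features with this order was not computed, so the count is a description only. The median own-strand log2 ratio over all tested features was -0.03. The median other-strand log2 ratio was 0.38 over the 6286 features with at least 20 such reads, of which 10.5% were at least 2-fold higher and 1.00% at least 2-fold lower. Of the zinc genes, ZAP1 with a log2 ratio of 1.31 (0.99 to 1.63) and ADH4 with 1.02 (0.37 to 1.68) were at least 2-fold higher and 0 were lower. The ratio of ADH4 rests on 46 reads at 39 °C and 38 at 30 °C. ZPS1 had 0.93 (0.69 to 1.17), so its strands differed in opposite directions. The RefSeq table used here lists no gene overlapping ZPS1, and its neighbours on both sides, HPF1 at 3051 bases and YOL153C at 1414 bases, lie on the minus strand. Both neighbours were looked up after the values of ZPS1 were seen. YOL153C had 736 own-strand reads at 39 °C and 612 at 30 °C, a log2 ratio of 1.01 (0.86 to 1.17). HPF1 went the other way, with 213 own-strand reads at 39 °C and 521 at 30 °C, a log2 ratio of -0.54 (-0.78 to -0.31). On the plus strand, the strand of ZPS1, HPF1 had 2888 reads at 39 °C and 9272 at 30 °C. These 2 counts are not scaled for depth, and the libraries held 6950540 reads in features at 39 °C and 11657228 at 30 °C. Whether reads of a neighbouring transcript fall in ZPS1 was not tested.

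**Figure D3:**
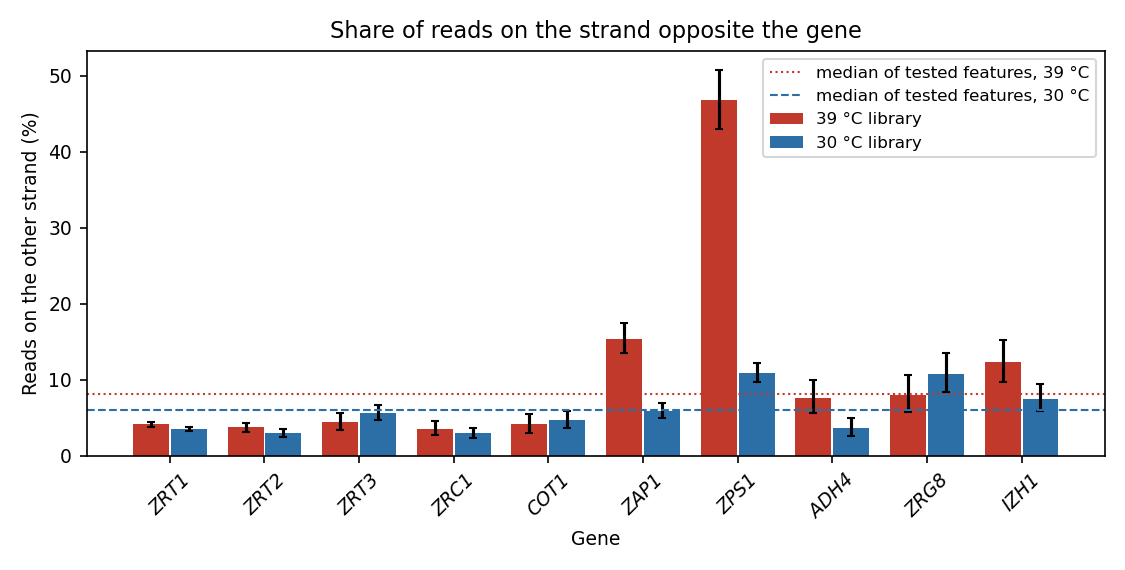
Percentage of each zinc gene's reads that lie on the strand opposite the gene, in the 39 °C library (red) and the 30 °C library (blue), with Clopper-Pearson 95% intervals. Lines give the medians of tested features, 8.08% at 39 °C and 6.01% at 30 °C. ZPS1 reaches 46.9% at 39 °C, below the 90th percentile of tested features (52.0%, not drawn). ZRT1 stays at 4.15% at 39 °C and 3.51% at 30 °C.

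ZRT1 and ADH4 lie in a row of Zap1 targets near the left end of chromosome VII, with MNT2, an alpha-1,3-mannosyltransferase gene, and VEL1, whose function is not known here, beyond ADH4. The high read level was not shared by the genes around ZRT1. FZF1, a transcription factor gene that starts 195 bases after the end of ZRT1 on the same strand, had 137 own-strand reads at 39 °C and 227 at 30 °C, or 21.9 CPM per kilobase at 39 °C and 21.6 at 30 °C. ADH4 on the other side had 70.4 CPM per kilobase at 39 °C and 74.3 at 30 °C, so the level of ZRT1 was 27.3 times that of ADH4 at 39 °C and 26.7 times at 30 °C. The noncoding transcript SUT532, which RefSeq places between ADH4 and ZRT1, was not analysed here.

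Further along, MNT2 on the minus strand had 93.4 CPM per kilobase at 39 °C and 126.2 at 30 °C, a log2 ratio of -0.43 (-0.54 to -0.33). VEL1 had 12 own-strand reads at 39 °C and 19 at 30 °C, while its other strand had 213 reads at 39 °C and 237 at 30 °C. Between temperatures the own-strand log2 ratios along this row were 0.10 (-1.09 to 1.20) for VEL1, -0.43 for MNT2, -0.08 for ADH4 and -0.04 for ZRT1. Then came 0.02 (-0.30 to 0.33) for FZF1 and -0.17 (-0.26 to -0.07) for HXK2. All were within 2-fold, and for VEL1 the interval is too wide to place it.

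**Figure D4:**
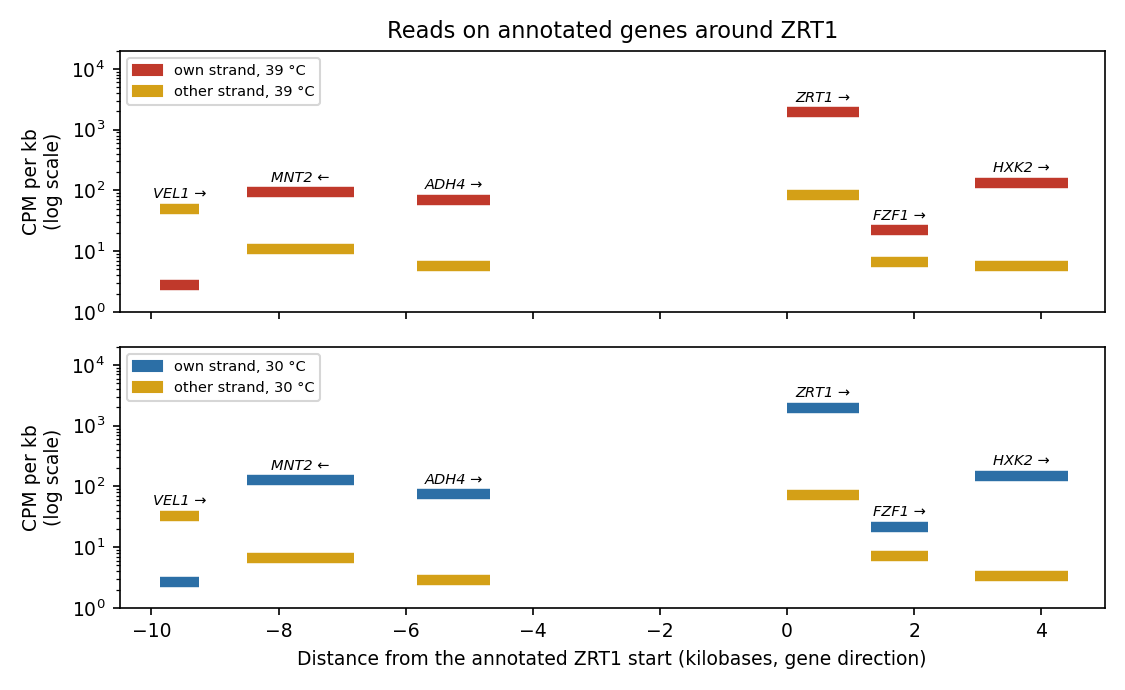
CPM per kilobase on a log axis for annotated genes around ZRT1, placed by distance in kilobases from the annotated ZRT1 start, at 39 °C (upper panel) and 30 °C (lower panel). Each segment spans a gene, coloured for its own strand and yellow for the other strand, and arrows give the gene's direction. ZRT1 stands above its neighbours in both panels, and VEL1 alone has more reads on the other strand.

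Further genes of zinc metabolism were taken from lists written from textbook knowledge. Of 17 other Zap1-activated genes, 1 was at least 2-fold higher at 39 °C, 0 were lower and 16 lay within 2-fold, with a median log2 ratio of 0.09. Over all tested features the shares were 4.40% higher and 2.69% lower with a median of -0.03. Again, 1 gene of 17 is too few to set against these shares. The higher gene was PST1, a cell wall protein, with 3189 reads or 458.8 CPM at 39 °C against 2220 reads or 190.4 CPM at 30 °C, for a log2 ratio of 1.27 (1.19 to 1.35). ICY2 had 0.95 (0.81 to 1.10) and passed 2-fold when libraries were scaled to own-strand reads. The lowest ratios belonged to RAD27, a flap endonuclease of DNA replication, with -0.76 (-0.86 to -0.66) and to IZH4, a relative of IZH1, with -0.68 (-0.93 to -0.44). Among the most read per kilobase, the peroxiredoxin gene TSA1 had 712.8 CPM per kilobase at 39 °C and 893.5 at 30 °C, with a log2 ratio of -0.33 (-0.39 to -0.26). HNT1 with -0.09 (-0.19 to 0.01) and PIS1, phosphatidylinositol synthase, with 0.09 (0.01 to 0.17) were close to no change. None of these 17 genes reached the level of ZRT1.

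Of 7 other zinc transport genes, 4 of which are also on the Zap1 list, 1 was at least 2-fold higher at 39 °C and 0 were lower, with a median log2 ratio of 0.16. Beside the 4.40% higher and 2.69% lower of all tested features, 1 gene of 7 is too few to compare. YKE4, a zinc transporter of the endoplasmic reticulum, had 1178 reads or 169.5 CPM at 39 °C against 951 reads or 81.6 CPM at 30 °C, for a log2 ratio of 1.05 whose interval (0.93 to 1.18) reaches below 2-fold. IZH3 had 0.82 (0.71 to 0.93) and IZH2 0.09 (-0.01 to 0.20). FET4, a low-affinity transporter of iron and zinc, had 0.16 (0.06 to 0.26), and MSC2, which works in zinc supply to the endoplasmic reticulum, -0.05 (-0.27 to 0.17). Within the IZH family the 4 ratios therefore ran from -0.68 for IZH4 to 0.82 for IZH3, with IZH1 and IZH2 close to no change.

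Of 12 genes of zinc-dependent enzymes, 1 was at least 2-fold higher, 0 were lower and the median log2 ratio was 0.01. Here too 1 gene of 12 is too few to set against the 4.40% higher and 2.69% lower of all tested features. The higher gene was MET6, methionine synthase, with 727.1 CPM at 39 °C against 306.8 CPM at 30 °C, for a log2 ratio of 1.24 (1.18 to 1.31). ADH1, the main fermentative alcohol dehydrogenase, had 1746.6 CPM at 39 °C against 976.5 CPM at 30 °C, for a log2 ratio of 0.84 (0.80 to 0.88), and its mitochondrial relative ADH3 had 0.32 (0.25 to 0.39). FBA1 with 0.05 (0.02 to 0.08) and the superoxide dismutase gene SOD1 with -0.03 (-0.07 to 0.02) were, like ZRT1, read at high levels with little difference. ADH5 had -0.18 (-0.34 to -0.03), and PMI40, mannose-6-phosphate isomerase, had the lowest ratio with -0.81 (-0.96 to -0.66). FBA1 was the 1 gene of these 3 lists whose CPM per kilobase exceeded that of ZRT1 in a library, with 1948.8 at 39 °C, a value inside the counting interval of ZRT1 (1893.0 to 1954.4).

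**Figure D5:**
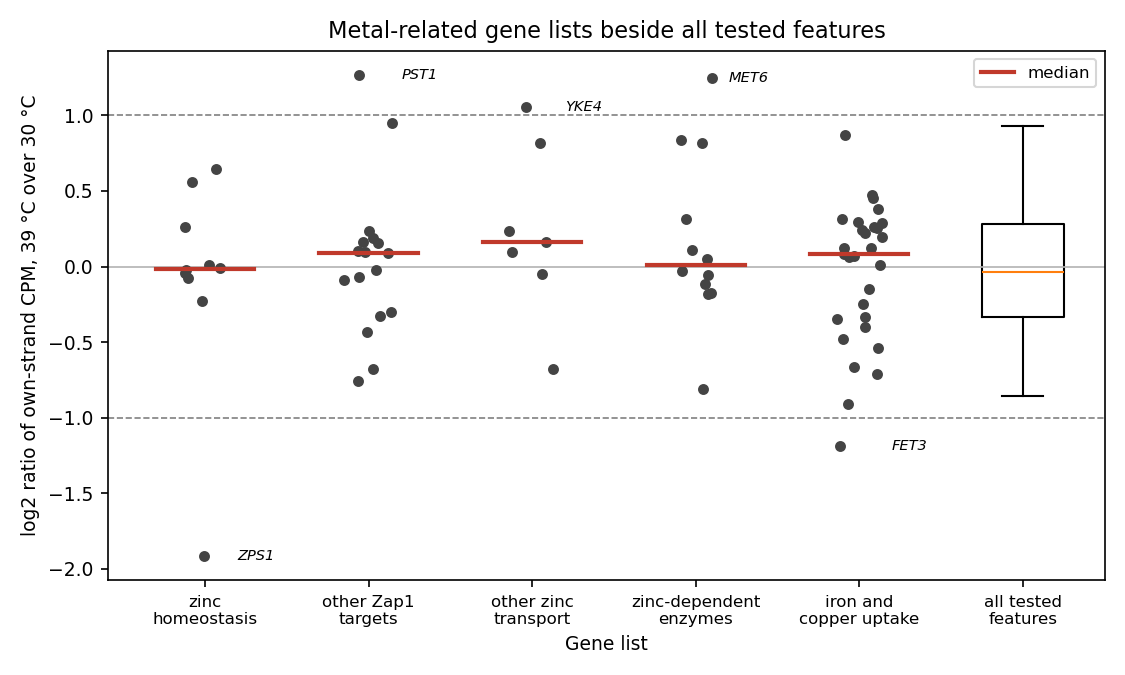
Own-strand log2 ratio, 39 °C over 30 °C, of the zinc homeostasis genes and of 4 lists of related genes (points, horizontally scattered for legibility) with each list's median in red. The box gives the quartiles and median of all 6162 tested features, with whiskers at percentiles 5 and 95, and dashed lines mark 2-fold. The medians run from -0.02 to 0.16, and the genes past 2-fold are named.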

How the data were processed

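PAR-CLIP reads of HTB-tagged Mip6 were analysed from 4 samples, 1 library at 39 °C and 1 at 30 °C, each split by strand. The deposited files hold raw read counts per feature with 5 HTSeq summary rows, which were left out. Alignment and counting tools are listed as Bowtie 1.1.1 and HTSeq, and builds as sacCer3 and R64, per the submitters' processing notes. The strand setting, mismatch filter and duplicate removal were not stated in the sources used here. The submitters' names for the count data carry AG for the minus-strand samples and TC for the plus-strand samples. Whether only reads with such a base change were counted was not stated, so the levels may be those of selected reads. Reads in no feature made up 22.3% to 24.7% of counted reads. Ambiguous reads made up 4.51% at 39 °C and 3.92% at 30 °C in the plus-strand samples. In the minus-strand samples they made up 13.3% at 39 °C and 9.94% at 30 °C. The effect of this on levels of plus-strand against minus-strand genes was not tested.

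The authors' deposited table gave feature lengths, names, a log2 ratio and a probability score of their comparison. Its ratio was turned to 39 °C over 30 °C by setting it against the counts (Pearson correlation 0.950 across 6162 features, which come from the same reads and are not independent replicates). Another 2 columns of per-library values match no label and were not used.

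The strand was read from systematic names, which 6685 of 7126 features allow, and 6048 features matched RefSeq R64 by locus tag. Own-strand CPM used all reads in features as the total, and 0.5 was added to each count before the log2 ratio. The call rule was 2-fold with at least 20 reads. Python 3.11.15, scipy 1.17.1, edgeR 4.0.16 and DESeq2 1.42.0 were used, the last 2 only for scaling factors. The calculation was tested on simulated Poisson counts. These hold no PCR copies and no variation between replicates, so they check the arithmetic only. The members and lists were chosen with earlier results of these data known. Named genes are the members, the 4 nearest to ZRT1, the neighbours of ZRT1 and ADH4 and, in each list, the 4 most read per kilobase, the 2 highest and 2 lowest by ratio and those past 2-fold. VEL1, HXK2, HPF1 and YOL153C were looked up after values were seen.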

Additional observations from a re-analysis of the deposited data

How the results depend on the processing

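The ratios of the 10 genes were recomputed with both strands summed, TMM factors, DESeq2 size factors, own-strand totals, totals of each strand file and a pseudocount of 5. With both strands summed, ZPS1 had a log2 ratio of -1.17 and ZAP1 -0.073. With own-strand totals ZRT1 had 0.0053 and 2 other Zap1 targets were at least 2-fold higher. The remaining ratios stayed inside their counting intervals, although ZRT3, ZRC1 and IZH1, whose intervals hold 0, changed sign under some settings. A minimum of 100 reads left 179 features at least 2-fold higher, against 271 with the minimum of 20, because fewer were tested. Requiring the whole interval past 2-fold left 115 higher and 79 lower features, against 271 and 166, and 0 other zinc transport genes, while ZPS1 stayed lower. Per kilobase ZRT1 took place 21 at 39 °C and 17 at 30 °C. No paired analysis was possible because each temperature had 1 library, and for the same reason no library could be left out. Depth was not the limit for the 10 genes, each with at least 347 own-strand reads in either library, but it was for VEL1.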

Other observations

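Genes of iron and copper uptake were set beside the zinc genes as another group of metal transporters. Of 29 genes, 0 were at least 2-fold higher at 39 °C and 1 was lower, with a median log2 ratio of 0.08. Over all tested features 4.40% were at least 2-fold higher and 2.69% lower. With 1 lower gene of 29 there are too few to set against these shares, and the values below describe single genes. The lower gene was FET3, the multicopper oxidase of high-affinity iron uptake, with 163.0 CPM at 39 °C, against 370.7 CPM at 30 °C, for a log2 ratio of -1.18 (-1.28 to -1.09). Its partner, the iron permease gene FTR1, had -0.54 (-0.62 to -0.47), and the siderophore transporter gene SIT1 had -0.91 (-0.99 to -0.83). Per kilobase the copper chaperone gene ATX1 was read most, with 889.8 CPM at 39 °C, against 1174.7 at 30 °C and a log2 ratio of -0.40 (-0.49 to -0.31). CCC1, which stores iron in the vacuole, had -0.25 (-0.35 to -0.15). The highest ratios were those of MRS4, a mitochondrial iron carrier, with 0.87 (0.76 to 0.99) and of SMF3, which releases iron from the vacuole, with 0.48 (0.35 to 0.60). Whether the zinc and iron uptake genes differ in their ratios was not tested, since there was 1 library per temperature.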
